A study of Mus musculus with 10 samples.

Results

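The 6 genes described here encode the inhibitory glycine receptor and its anchor: the alpha subunits Glra1, Glra2, Glra3 and Glra4, the beta subunit Glrb, and gephyrin (Gphn). They were chosen by symbol, without regard to their values, and all 6 of 6 were present among 23258 gene symbols. They were measured by RNA sequencing in 10 libraries of Hb9-GFP retinal ganglion cells, which send visual signals to the brain, sorted at postnatal day 6 from C57BL/6 mice. Of these libraries 5 came from Satb1-/- Hb9-GFP mice (knockout 1 to 5) and 5 from wild-type Hb9-GFP mice (wild-type 1 to 5). Both genotypes carry the reporter, in which Hb9 sequences drive green fluorescent protein. In retina it is known to mark ON-OFF direction-selective ganglion cells. Each library was made from RNA of about 1000 sorted cells, amplified as cDNA, and the replicates of a genotype came from different litters. The labels state neither which part of Satb1 is missing nor whether the loss is limited to these cells.

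Glycine receptors are chloride channels built from alpha subunits alone or from alpha and beta subunits together. The alpha subunits carry most of the glycine-binding surface, and the beta subunit binds gephyrin, a scaffold that holds glycine and GABA-A receptors at inhibitory synapses. In the retina, glycine is released mainly by amacrine cells, and ganglion cells are among its targets. In the developing nervous system the alpha-2 form is known to predominate, and alpha-1 is the main adult form in spinal cord and brainstem.

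Transcripts of Glra2, Glrb and Gphn were found in all 10 libraries, at levels between 7.37 and 112 TPM, a transcript level scaled for transcript length and library total. Glra1, Glra3 and Glra4 were at 0 to 14.2 TPM, and each was listed at exactly 0 in at least 5 libraries. Glra2 therefore made up nearly all of the alpha-subunit message in both genotypes. None of the 6 genes passed a test between knockout and wild-type, and for Glra1 the test could not pass because most libraries were listed at 0.

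The sequences before the starts of the 2 receptor subunits found in every library, and of Glra3, are shown to set their base make-up beside these levels. They are the 250 bases before the RefSeq start (GRCm38.p6, gene strand), and capitals mark each CG dinucleotide, which reads the same on both strands. Glra2 lies at chrX:165327394-165327643 (minus strand), Glrb at chr3:80913661-80913910 (minus strand) and Glra3 at chr8:55940168-55940417 (plus strand).
Glra2: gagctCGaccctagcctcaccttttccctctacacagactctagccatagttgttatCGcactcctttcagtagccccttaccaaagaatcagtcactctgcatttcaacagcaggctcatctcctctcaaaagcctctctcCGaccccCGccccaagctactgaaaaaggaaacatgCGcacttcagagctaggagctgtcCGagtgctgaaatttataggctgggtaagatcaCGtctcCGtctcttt
Glrb: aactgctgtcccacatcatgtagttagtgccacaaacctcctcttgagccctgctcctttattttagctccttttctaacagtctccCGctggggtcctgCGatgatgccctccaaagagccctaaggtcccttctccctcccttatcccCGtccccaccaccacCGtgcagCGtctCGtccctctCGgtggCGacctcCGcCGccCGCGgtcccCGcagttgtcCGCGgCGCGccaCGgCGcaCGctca
Glra3: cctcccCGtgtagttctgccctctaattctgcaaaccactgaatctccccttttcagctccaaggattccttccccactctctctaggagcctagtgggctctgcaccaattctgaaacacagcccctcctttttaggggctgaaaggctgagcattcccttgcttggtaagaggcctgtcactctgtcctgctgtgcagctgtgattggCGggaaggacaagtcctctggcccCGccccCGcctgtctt
None of these 3 windows overlapped a GENCODE exon. The Glrb window held 20 CG dinucleotides, a number reached by 17.9% of 32851 RefSeq windows of the same length. The Glra2 window held 8, reached by 43% of windows, and the Glra3 window held 4, reached by 62.2%. Over all windows the median was 6. These counts describe the letters only. The corresponding windows of Glra4 and Gphn lie within annotated exons and are not printed.

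Glra2 encodes the alpha-2 subunit (ENSMUSG00000018589.8, chromosome X, 165129017 to 165327393, minus strand, mm10). Its level was 33.4, 32.7, 11.6, 11.7 and 33.9 TPM in knockout 1 to 5, and 97.9, 36.0, 37.5, 9.58 and 12.7 TPM in wild-type 1 to 5. The genotypes overlapped: wild-type 1 was the highest library and wild-type 4 the lowest, with all knockout libraries between them. The means were 24.6 ± 11.9 TPM in knockout and 38.7 ± 35.5 TPM in wild-type (SD, n = 5 each). The difference, knockout minus wild-type on the log2(TPM + 1) scale, was -0.33 (SE 0.73, 95% interval -1.86 to 1.19; limma, Benjamini-Hochberg adjusted p = 0.992; two-sided exact permutation p = 0.619). Because these are bulk libraries, fewer cells of a type and less RNA per cell cannot be told apart here.

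**Figure D1:**
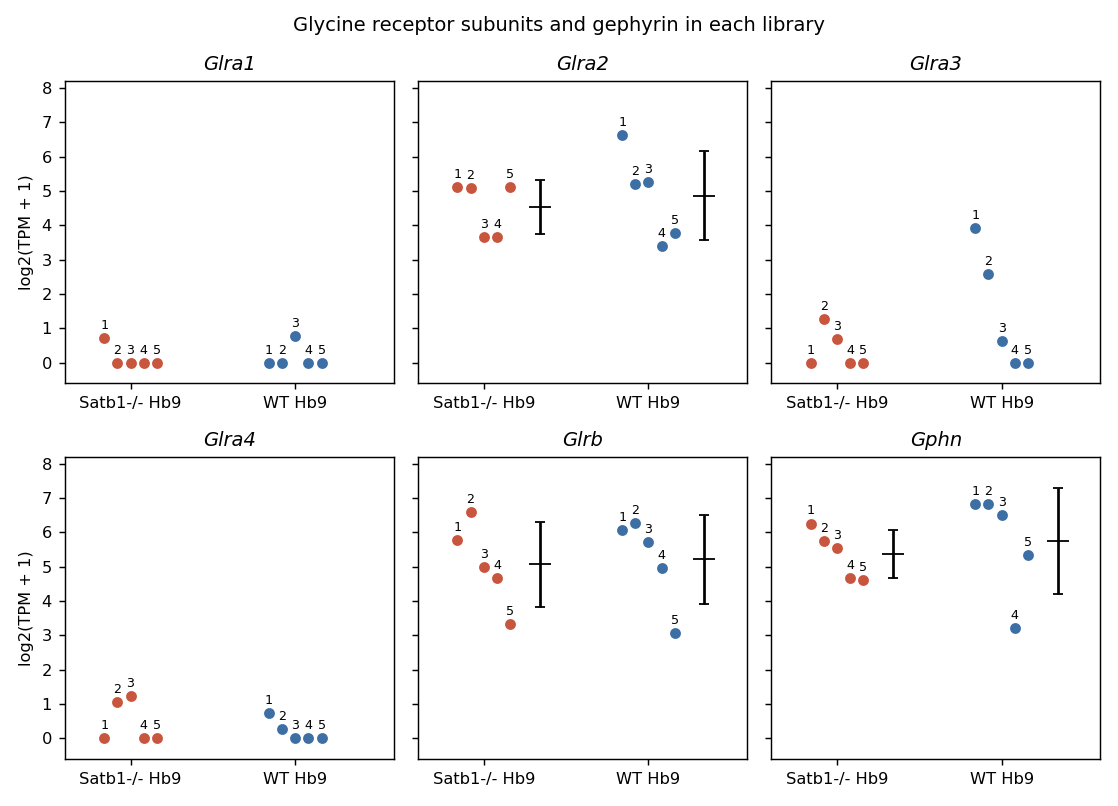
Levels of the 6 genes in each library as log2(TPM + 1), with Satb1-/- Hb9 libraries in red on the left of each panel and WT Hb9 libraries in blue on the right. Numbers are replicate numbers, and for Glra2, Glrb and Gphn the black bars give the mean and SD of 5 libraries. Glra2, Glrb and Gphn are above 0 in all 10 libraries and overlap between genotypes, while most libraries list Glra1, Glra3 and Glra4 at or near 0.

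The other alpha subunits were scarce. Glra3, which encodes the alpha-3 subunit (ENSMUSG00000038257.9, chromosome 8, 55940460 to 56130070, plus strand), was at 0, 1.41, 0.608, 0 and 0 TPM in knockout 1 to 5, and at 14.2, 4.99, 0.546, 0 and 0 TPM in wild-type 1 to 5. Only wild-type 1 and 2 were above 2 TPM, and wild-type 3 to 5 lay within the range of the knockout libraries (exact permutation p = 0.365, two-sided, on log2(TPM + 1)). Glra4, the alpha-4 subunit gene (ENSMUSG00000018595.6, chromosome X, 136757674 to 136780141, minus strand), was at 1.09 and 1.37 TPM in knockout 2 and 3 and at 0.673 and 0.2 TPM in wild-type 1 and 2. It was listed at 0 in the remaining 3 libraries of each genotype (exact permutation p = 0.444). The noncoding gene BC065397 overlaps Glra4 on the opposite strand and reached 11.2 TPM. Whether the counting used strand is not given in the sources used here. The low Glra4 values are therefore uncertain. Glra1, the alpha-1 subunit gene (ENSMUSG00000000263.15, chromosome 11, 55514238 to 55608198, minus strand), was at 0.649 TPM in knockout 1 and 0.722 TPM in wild-type 3, with the other 8 libraries listed at 0 (exact permutation p = 1). The design allows a p of 0.00794, but with so many values tied at 0 the smallest possible p was 0.444 for Glra1 and 0.0476 for Glra4, so the Glra1 test could not have passed. These 3 genes had at least 1 TPM in 3, 2 and 0 libraries in the order given. They did not pass the filter of at least 1 TPM in at least 5 libraries and were left out of the fit across genes.

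As TPM is scaled for transcript length, the subunits can be set side by side within a library. Glra2 made up 85.4% to 100% of the summed alpha-subunit TPM in knockout (median 98.1%) and 86.8% to 100% in wild-type (median 96.7%). Glra3 reached 12.6% and 12.1% in wild-type 1 and 2 and at most 4.47% in knockout, and Glra4 reached 10.1% in knockout 3. Over the 10 libraries Glra2 exceeded Glra3 in 10 of 10, by a mean of 3.78 ± 0.92 (SD) on the log2(TPM + 1) scale. A two-sided exact sign-flip permutation test gave p = 0.00195, the smallest it can give, and 0.00977 after Benjamini-Hochberg adjustment over the 5 pairs of neighbours in the order of mean level. That order was taken from the same values. None of the other 4 pairs passed. Gphn exceeded Glrb in 8 of 10 libraries (mean 0.41 ± 1.1, adjusted exact p = 0.317), and Glrb exceeded Glra2 in 7 of 10 (0.45 ± 1.12, adjusted exact p = 0.317). Glra3 against Glra4 and Glra4 against Glra1 gave adjusted exact p values of 0.317 and 0.406. Their values were equal in 5 and 4 of the 10 libraries, and a sign flip leaves an equal pair unchanged. The smallest p that these tests could give was therefore above 0.00195, and no conclusion on the order of these scarce genes is drawn.

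Glrb encodes the beta subunit (ENSMUSG00000028020.16, chromosome 3, 80843599 to 80913660, minus strand). Its level was 53.4, 94.6, 30.9, 24.2 and 8.97 TPM in knockout 1 to 5, and 66.3, 75.5, 51.4, 30.1 and 7.37 TPM in wild-type 1 to 5. The highest library was a knockout and the lowest a wild-type, so the genotypes overlapped over nearly their whole range. The means were 42.4 ± 33.3 TPM in knockout and 46.1 ± 27.6 TPM in wild-type (SD, n = 5 each). The log2 difference was -0.15 (SE 0.76, 95% interval -1.74 to 1.43; limma, Benjamini-Hochberg adjusted p = 0.992; exact permutation p = 0.873).

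The ratio of summed alpha to beta transcripts varied more between libraries than between genotypes. It was 0.638, 0.372, 0.439, 0.481 and 3.78 in knockout 1 to 5, and 1.7, 0.546, 0.754, 0.318 and 1.72 in wild-type 1 to 5. Alpha transcripts were the fewer in 4 of 5 knockout and 3 of 5 wild-type libraries. Knockout 5 stood apart, with Glra2 at 33.9 TPM, the highest of the knockout libraries, beside Glrb at 8.97 TPM, the lowest of them.

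**Figure D2:**
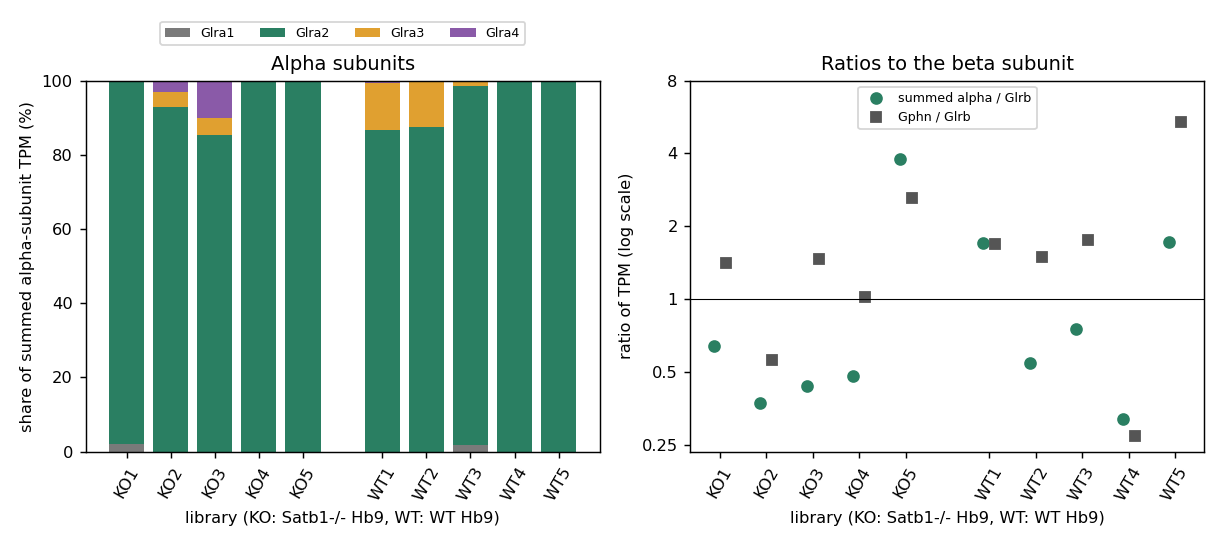
Left, share of the summed alpha-subunit TPM held by each alpha subunit in each library, in percent; right, ratio of summed alpha TPM to Glrb TPM (circles) and of Gphn TPM to Glrb TPM (squares), on a log scale with a line at 1. Libraries KO1 to KO5 are Satb1-/- Hb9 and WT1 to WT5 are WT Hb9. Glra2 holds at least 85.4% of the alpha TPM in every library, and the alpha to beta ratio is highest in knockout 5, at 3.78.

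Gphn encodes gephyrin (ENSMUSG00000047454.12, chromosome 12, 78226379 to 78684772, plus strand), which anchors the beta subunit and also carries out the last steps of molybdenum cofactor synthesis. It had the highest mean level of the 6 genes. Its level was 75.4, 52.9, 45.3, 24.6 and 23.4 TPM in knockout 1 to 5, and 112, 112, 89.8, 8.21 and 39.7 TPM in wild-type 1 to 5. Wild-type 1, 2 and 3 were above all knockout libraries, while wild-type 4 was below them all. The means were 44.3 ± 21.6 TPM in knockout and 72.3 ± 46.4 TPM in wild-type (SD, n = 5 each). The log2 difference was -0.37 (SE 0.73, 95% interval -1.89 to 1.15; limma, Benjamini-Hochberg adjusted p = 0.992; exact permutation p = 0.659). Without wild-type 4 it was -1.01 (limma adjusted p = 0.996). The ratio of Gphn to Glrb was 0.559 to 2.61 in knockout (median 1.41) and 0.272 to 5.39 in wild-type (median 1.69).

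Of all 11744 genes tested, 0 (0%) passed limma at a threshold of 0.05 on the Benjamini-Hochberg adjusted p, and 389 (3.31%) passed it before adjustment. All 3 tested members had a difference below 0, as had 67.4% of all genes tested, but after median centring of the libraries all 3 were above 0 (0.042, 0.22 and 0.0016 for Glra2, Glrb and Gphn). The median difference of all genes tested was -0.31, and 0.07 after centring. Relative to the median of -0.31, the differences were -0.03 for Glra2, 0.16 for Glrb and -0.07 for Gphn. The 95% intervals correspond to folds, knockout over wild-type on the TPM + 1 scale, of 0.276 to 2.29 for Glra2, 0.3 to 2.7 for Glrb and 0.269 to 2.21 for Gphn.

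Some of the variation between libraries crosses genotype. Knockout 4, knockout 5 and wild-type 5 stand apart from the other 7 on the first principal component of all genes tested, which held 32.9% of the variance. Transcripts of cytosolic ribosomal proteins held 12.2% to 13.7% of the TPM there, and 3.88% to 8.04% elsewhere. Glrb was at 7.37 to 24.2 TPM in the 3 libraries and at 30.1 to 94.6 TPM in the other 7, with no overlap. Of all genes tested, 21.2% were likewise lower in all 3 than in any of the other 7, so this separation is common. Glra2 overlapped, at 11.7 to 33.9 TPM in the 3 and 9.58 to 97.9 TPM in the other 7. Gphn was at 23.4 to 39.7 TPM in the 3 libraries, and wild-type 4, at 8.21 TPM, was the only one of the other 7 below that range. Wild-type 4 stood alone on the second principal component (13% of the variance), at -145, with every other library between 6.87 and 43.5. Without the 3 libraries the log2 differences were -0.52 for Glra2, 0.03 for Glrb and 0.01 for Gphn (limma adjusted p = 0.988, 0.998 and 0.999). The part of the library split in these levels was not tested.

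**Figure D3:**
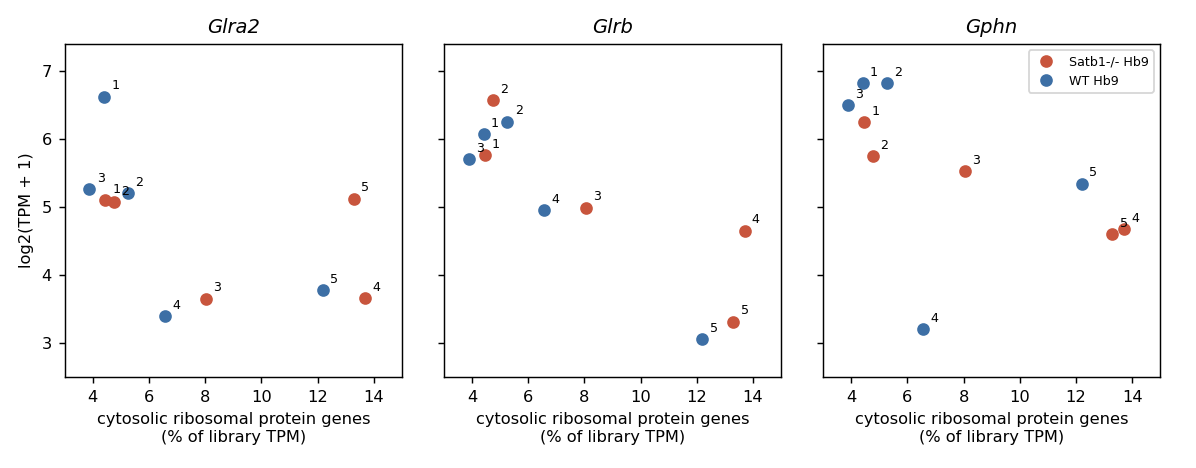
Levels of Glra2, Glrb and Gphn as log2(TPM + 1) against the share of library TPM held by cytosolic ribosomal protein genes, 1 point per library, with Satb1-/- Hb9 in red and WT Hb9 in blue and replicate numbers beside the points. The 3 libraries with the largest ribosomal shares, at 12.2% to 13.7%, have the 3 lowest Glrb levels.

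The marker genes of ganglion cells were present throughout: all 13 listed had at least 1 TPM in at least 9 of 10 libraries, with Rbpms, an RNA-binding protein gene that marks ganglion cells, at 491 to 2980 TPM in knockout and 374 to 1770 TPM in wild-type. Of 14 amacrine markers 4 passed the filter. Slc32a1, the vesicular transporter that loads glycine and GABA, was at 0 to 1.18 TPM in knockout and 0 to 0.582 TPM in wild-type. Other cell types were represented at varied levels. Summed microglia markers stood at 76.2 to 3100 TPM in knockout and 7.01 to 2290 TPM in wild-type (10 listed), and summed photoreceptor markers at 1.39 to 592 TPM in knockout and 30.5 to 644 TPM in wild-type (16 listed). Summed Muller glia and progenitor markers stood at 176 to 7860 TPM in knockout and 326 to 611 TPM in wild-type (11 listed). Knockout 5, the library apart in its alpha to beta ratio, had the 7860 TPM, and the other 4 knockout libraries had at most 1100 TPM. Apoe made up 5650 TPM and Vim 2120 TPM of it, so that sum rests mainly on these genes. In knockout 5, 6 of the 11 markers had at least 1 TPM, while Rlbp1, Slc1a3, Sox2, Hes1 and Hes5 were listed at 0. That library also had the highest summed microglia markers, at 3100 TPM. Summed endothelial and pericyte markers were low, at 0.577 to 7.1 TPM in knockout and 5.37 to 59.8 TPM in wild-type (8 listed). Only the pericyte gene Rgs5 passed the filter (-2.86, SE 0.93, limma adjusted p = 0.992). It was at 0.103, 1.59, 0.957, 0.0326 and 0.54 TPM in knockout 1 to 5. In wild-type 1 to 5 it was at 38.6, 42.9, 0, 23.8 and 3.18 TPM. Rgs5 thus passed mainly through wild-type libraries, where it is high, so its difference is not independent of the filter. The part of these cell types in the member levels was not tested. Satb1 transcripts were found in every library, at 24.1 to 170 TPM in knockout and 38.6 to 414 TPM in wild-type (log2 difference -1.25, SE 0.71; limma adjusted p = 0.992). As a check of the labels this is weak, since the deleted part is not stated.

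Genes whose products bind gephyrin or the beta subunit, or share its synapses, were well represented. All 25 of 25 listed passed the filter and 0 were called (0% of all genes tested), with 17 lower and 8 higher in knockout and a median log2 difference of -0.18, against -0.31 for all genes tested. Nlgn2, an adhesion protein of inhibitory synapses, was at 72.0, 48.5, 39.6, 193 and 16.6 TPM in knockout 1 to 5, and at 136, 237, 121, 83.4 and 61.2 TPM in wild-type 1 to 5. Its log2 difference was -1.08 (SE 0.66), with a 95% interval of -2.46 to 0.30, and the genotypes overlapped. Gabarap, which links GABA-A receptors to trafficking, stood at 186 ± 108 TPM in knockout and 335 ± 160 TPM in wild-type (-0.86, SE 0.57). The other scaffold and adhesion genes lay closer to 0. The differences were -0.37 (SE 0.63) for Lhfpl4, a GABA-A receptor partner, -0.21 (SE 0.86) for the adhesion gene Slitrk3, and -0.07 (SE 0.62) for Iqsec3, a gephyrin-binding exchange factor. Of these 5 genes none had a limma adjusted p below 0.992.

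Among glycine transport and metabolism genes, 5 of 11 listed passed the filter and 0 were called, with 3 lower and 2 higher in knockout. Slc6a9 encodes the glycine transporter GlyT1, which takes up glycine. It was at 1.6, 0.671, 0.985, 1.36 and 0 TPM in knockout 1 to 5, and at 2.03, 4.6, 10, 19.2 and 6.52 TPM in wild-type 1 to 5. No knockout library reached the lowest wild-type value, which held for 0.426% of all genes tested. The log2 difference was -2.09 (SE 0.68; limma, Benjamini-Hochberg adjusted p = 0.992), which did not pass across all genes. Over the 20 alternatives that kept the gene it ranged from -3.19, with 0.1 added to TPM in place of 1, to -1.06, with 5 added. Its size thus depends on the added value. All 5 wild-type but only 2 knockout libraries reached 1 TPM, so the gene passed the filter mainly through wild-type. It dropped out with at least 5 TPM required and with genes listed at 0 left out. It is also a marker of glycinergic amacrine cells and of glia. Slc6a5, which encodes the neuronal glycine transporter GlyT2, was listed at 0 in all wild-type libraries and at no more than 0.294 TPM in knockout.

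Of 12 listed chloride transport genes 9 passed the filter and 0 were called, with 6 lower and 3 higher in knockout and a median of -0.27. The balance of chloride import and export sets whether glycine receptors excite or inhibit a cell. The exporter gene Slc12a5 (KCC2) was at 98.5, 238, 108, 179 and 153 TPM in knockout 1 to 5, and at 179, 375, 190, 171 and 161 TPM in wild-type 1 to 5 (-0.46, SE 0.52). The importer gene Slc12a2 (NKCC1) was at 106, 16, 6.68, 1.11 and 1.97 TPM in knockout 1 to 5, and at 11, 9.46, 8.58, 5.13 and 0.671 TPM in wild-type 1 to 5 (0.57, SE 0.98). Slc12a5 exceeded Slc12a2 in every library except knockout 1. Neither gene differed between genotypes beyond the replicate spread (limma adjusted p = 0.992 for each).

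The other role of gephyrin was represented by 10 molybdenum cofactor genes, of which 5 passed the filter, 0 were called, and 3 were lower and 2 higher in knockout. Mocs2, a subunit gene of molybdopterin synthase, stood at 24.1 ± 17.1 TPM in knockout and 32.0 ± 24.5 TPM in wild-type (-0.26, SE 0.79). Mocs1, which acts at the first step, was at 2.28 to 16.5 TPM in knockout and 0.145 to 106 TPM in wild-type, with the highest value in wild-type 4. Suox, a cofactor-dependent sulfite oxidase, was at 1.39 to 18.3 TPM in knockout and 0.421 to 18.1 TPM in wild-type. Mocs3 did not pass the filter and was at most 0.492 TPM in knockout and 1.27 TPM in wild-type.

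GABA-A receptors share gephyrin with glycine receptors, and their transcripts were far more abundant. The summed TPM of the glycine receptor subunits was 5.03% to 16.9% of that of both receptor families in knockout (median 9.63%) and 4.76% to 8.44% in wild-type (median 6.03%). Of 19 listed GABA-A subunit genes 12 passed the filter and 0 were called, with 10 lower and 2 higher in knockout and a median log2 difference of -0.64, against 67.4% lower and a median of -0.31 for all genes tested. Before adjustment 1 of the 12 had a p under 0.05, Gabrg3 (-1.31, SE 0.56; limma adjusted p = 0.992), where 3.31% of all genes tested did. Gabra2 stood at 90.1 ± 87.3 TPM in knockout and 108 ± 39.3 TPM in wild-type (-0.61, SE 0.65), and Gabra3 at 8.18 ± 4.79 TPM in knockout and 18.6 ± 8.44 TPM in wild-type (-1.22, SE 0.75).

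**Figure D4:**
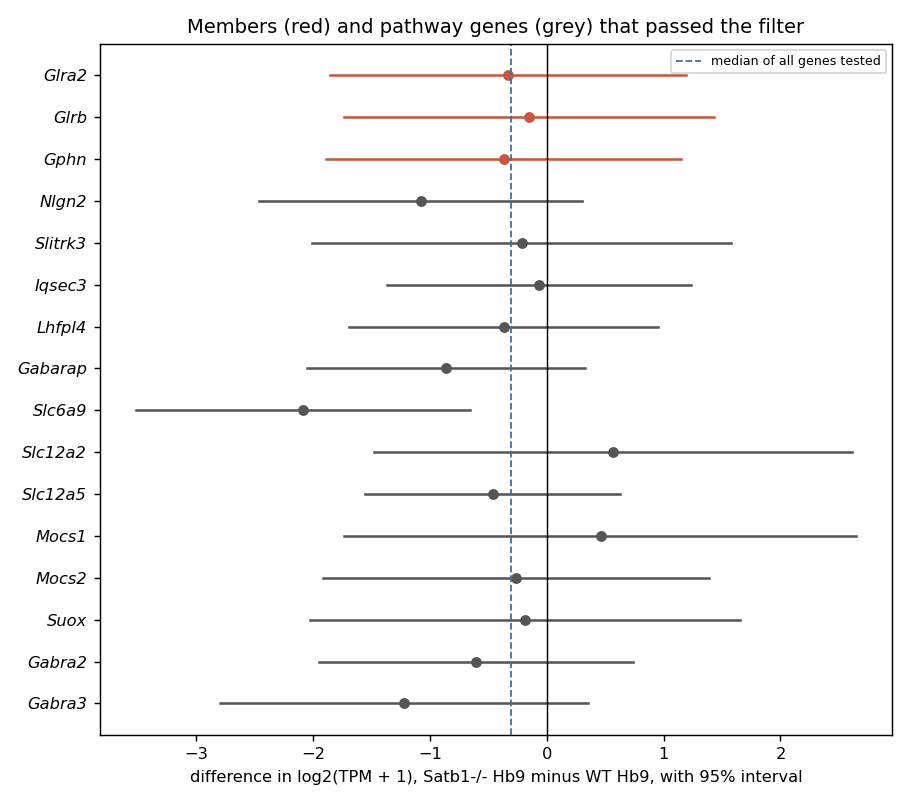
Difference in log2(TPM + 1), Satb1-/- Hb9 minus WT Hb9, with its 95% interval from limma (n = 5 libraries each), for the 3 members that passed the filter (red) and the pathway genes described here that did (grey). The solid line marks 0 and the dashed line the median of all genes tested, -0.31; the intervals of Glra2, Glrb and Gphn span both lines, and that of Slc6a9 lies below 0 before adjustment for the number of genes.

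The genes whose profile over the 10 libraries lay nearest to each member were found by the root mean square difference between log2(TPM + 1) profiles, each centred on its own mean. For Glrb they were Yme1l1, a mitochondrial protease gene (0.2), Gnai3, a G-protein subunit gene (0.29), and Cstf2, an RNA cleavage factor gene (0.3), against a median of 1.24 over all genes. For Glra2 they were Ogfod1 (0.38), Prune2 (0.41) and Zfp955a (0.42), with a median of 1.31. For Gphn they were Ufc1 (0.37), Armcx1 (0.39) and Tanc1 (0.41), with a median of 1.34. The members were not each other's nearest neighbours. Among 10667 genes, Gphn was in place 424 for Glra2 (0.77), and Glrb was in place 2639 for Glra2 (1.06) and 2328 for Gphn (1.05). All profiles share the same 10 libraries, so differences between whole libraries enter every one of them.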

How the data were processed

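Single-end RNA-seq libraries of sorted ganglion cells were analysed, 5 per genotype, grouped by their titles. Per the file header and its values, the authors deposited log10(TPM + 1) for 23746 entries, with each library summing to 1000000 TPM after back-transformation. The submitters' processing notes name TopHat2 2.0.10, Cufflinks and mm10. How reads were counted, and with which annotation, filters and strand setting, is not given in the sources used here. TPM keeps no depth, so depth is unknown and no counting interval was computed. An exact 0 may be an estimate that failed.

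Entries with a number for a symbol (26, holding 0.0438% to 0.198% of the TPM) were left out, and 240 symbols on several lines were summed. Genes reaching 1 TPM in 5 or more libraries were tested on log2(TPM + 1) with limma 3.58.1 in R 4.3.3 (genotype only, mean-variance trend, Benjamini-Hochberg over all 11744 genes, threshold 0.05). The fit was tested on simulated data. Exact permutation tests used all 252 divisions of the libraries, and the sign-flip tests, added after the values were seen, all 1024 arrangements. Coordinates are from GENCODE M21 and windows from RefSeq. The members, lists and alternatives were chosen with earlier results of these data known. Text names all 6 members, a preset set of pathway genes and the 3 nearest profiles. Results of some preset genes are not reported here. Rbpms, BC065397, Apoe, Vim, Rlbp1, Slc1a3, Sox2, Hes1, Hes5, Rgs5 and Gabrg3 were named after their values were seen.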

Additional observations from a re-analysis of the deposited data

Results flagged for a closer look

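Of 18 sets of 5 libraries checked (each gene's TPM and 3 ratios, by genotype), 4 had a library whose gap to the nearest other exceeded 0.71 of the range. Chance gives about 1 in 20 sets of untied, normally distributed values. The TPM values and ratios were checked without logs, so that rate is only a rough guide here. The 2 sets of Glra1 met this because 4 of their 5 libraries were listed at 0, and the chance rate does not apply to them. They were knockout 1, at 0.649 TPM, and wild-type 3, at 0.722 TPM, each the only library of its genotype with a value above 0. The ratio of alpha to beta transcripts was 3.78 in knockout 5, against 0.372 to 0.638 in the other 4 knockout libraries. The ratio of Gphn to Glrb was 5.39 in wild-type 5, against 0.272 to 1.75 in the other 4 wild-type libraries. Its gap was 0.711 of the range, only just past the limit. Both libraries with such ratios are among the 3 that stand apart on the first principal component, and they have the lowest Glrb level of their genotype.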

How the results depend on the processing

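Glra1 could not pass its test with 8 of 10 libraries listed at 0, and none of the other 5 genes passed under any alternative: the limma adjusted p was 0.742 to 1 for Glra2, Glrb and Gphn over 22 alternatives, and the exact permutation p was 0.0952 to 1 for Glra1, Glra3 and Glra4 over 14. Glra3 stayed below 0 and Glra4 above 0 in all 14, while the direction of the other 4 genes changed in at least 2. Median centring gave 0.042 for Glra2, 0.22 for Glrb, 0.0016 for Gphn and 0.36 for Glra1, with the median of all genes moving to 0.07. Centring also moves values listed at 0, by an amount set for each library, which breaks their ties. The 0.36 for Glra1 and the exact permutation p of 0.0952, from Glra4 under centring, therefore carry that shift and cannot be read as levels of these genes. Quantile normalization gave 0.19 for Glrb. Without the 3 libraries apart the differences were 0.029 for Glrb, 0.010 for Gphn and 0.044 for Glra1, and with a term for them Glrb was at 0.28. Leaving out each library in turn gave -0.70 to 0.11 for Glra2, -0.69 to 0.29 for Glrb, -1.01 to -0.10 for Gphn, -0.16 to 0.14 for Glra1, -1.39 to -0.41 for Glra3 and 0.07 to 0.40 for Glra4. The cause was not tested. Over all genes the count called was 1 (lower in knockout) with at least 5 TPM required, without the trend, and without genes listed at 0, each; it was 3 with library weights (2 lower, 1 higher), and 0 to 1 in total, lower or higher on leaving out each library. With the replicate number as a block 0 genes were called, and Glra2, Glrb and Gphn had limma adjusted p values of 0.883, 0.938 and 0.849. The labels do not say whether equal numbers share a litter, so the main fit did not take them as pairs. Correlations of deviations were -0.032 to 0.364 between libraries with the same number (median 0.132). Between libraries with different numbers they were -0.403 to 0.491 (median -0.006), and 5 of 10 libraries correlated best with their own number. The block raised the genes at an unadjusted p under 0.05 to 830, against 389. It lowered the SE from 0.73 to 0.56 for Glra2, 0.76 to 0.42 for Glrb and 0.73 to 0.49 for Gphn. Depth is unknown, and 5 libraries per genotype limit what could be detected.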
